A study of Mus musculus with 18 samples.

Results

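The late effect of deleting the gene of serum response factor (SRF) was read in heart ventricles that received no drug. The comparison used 6 of the 18 arrays of the series, chosen by their titles: 3 arrays of SRFHKO hearts, which carry the deletion, and 3 of control hearts, all at day 25 without phenylephrine (PE). All mice were males of 10 weeks with the strain given as CR7BL6, and the titles call the arrays of a group biological replicates. The controls were littermates carrying the SRF-flex2neo allele, and mutants and controls alike had received 0.7 mg of tamoxifen on 3 days. Both groups therefore share the drug that triggers the deletion. The sources used here do not give the Cre line or the cells in which it acts. The other arrays served only for comparison: 2 control and 4 SRFHKO hearts at day 8, and 3 hearts of each genotype at day 25 that had received PE, which activates alpha-1 adrenergic receptors, at 80 mg/kg/day by osmotic minipump between day 10 and day 25.

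SRF is a transcription factor that binds a short DNA element, the CArG box, and recruits partners such as myocardin and the myocardin-related factors. In muscle it drives genes of actin, myosin and the contractile apparatus, and in many cells it also drives genes that respond to growth signals within minutes. In the adult heart it is known for keeping up cardiac structural genes and genes of energy supply.

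The tissue is whole ventricle, so fewer cells of a type and less RNA per cell cannot be told apart in any result below. All 17 cardiomyocyte markers on the list used here passed the filter on low signal. Levels are log2 of the scaled signal plus 2, differences are SRFHKO minus control on that scale, errors of differences are standard errors, and a gene was called when its limma adjusted p was under 0.05. Correlations between the 6 arrays lay between 0.936 and 0.967. Before scaling, the SRFHKO arrays were brighter than the control arrays, with a 2% trimmed mean of 75.6 ± 6.89 against 57.3 ± 10.96 (SD, n = 3 each; ratio 1.32; two-sided exact permutation test p = 0.1, the smallest that 3 against 3 allows). The ratio of the 3' to the 5' probe set of Gapdh, which rises as RNA decays, lay between 0.820 and 0.835 in SRFHKO and between 0.868 and 0.945 in control arrays, without overlap. The same ratio for Actb lay between 1.83 and 2.02 in SRFHKO and between 2.00 and 2.03 in control arrays, with overlap. The part of brightness in the results was not tested beyond the covariate fit given below, and that of RNA quality was not tested.

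The targeted gene was checked first. The probe set that reads Srf stood at 7.66, 7.37 and 7.42 in control hearts and at 7.48, 7.16 and 7.63 in SRFHKO hearts. The groups overlapped, and the difference was -0.06 ± 0.19 (limma adjusted p = 0.901), with its sign turned without control replicate 1 (0.03) or SRFHKO replicate 2 (0.07). A dimmer Srf probe set gave -0.54 ± 0.19 (limma adjusted p = 0.148 over all probe sets). The sources used here do not give where these probes lie relative to the deleted part, so they check nothing about the labels.

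At day 25 without PE, 295 of 12610 genes were called (2.34%), of which 159 were higher (1.26%) and 136 lower (1.08%) in SRFHKO hearts. The higher genes were led by Nmrk2, Myh7 and Esr1, and the lower genes by Ckm, Ptges3l, Itgb1bp2, Zfp30 and Kcnip2. Most changes were small: the median called rise was 0.64 and the median called fall was -0.72, against a median of -0.05 over all genes tested. Differences of at least 2-fold numbered 26 among the rises and 32 among the falls, while 57 rises and 38 falls were under 1.5-fold. In 293 of the 295 the 2 groups of 3 arrays did not overlap, which the call itself favours, against 21.6% of all genes tested. The 2 exceptions were the protease Corin and the kinase gene Fastk, the latter named after its values were seen. At an unadjusted p under 0.05, 18.3% of genes passed.

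The number of calls rested on how the spread was estimated and on single hearts. A fit on the 6 arrays alone called 18 genes higher and 22 lower, array brightness as a covariate (added after the data were seen) left 22 and 17, and leaving out SRFHKO replicate 3 left 24 and 32. Without SRFHKO replicate 2 there were 51 and 45, without control replicate 3 there were 55 and 44, without control replicate 1 there were 100 and 64, without control replicate 2 there were 89 falls and without SRFHKO replicate 1 there were 213. Calls that held under every setting tried, each of the 6 arrays left out in turn included, numbered 5 among the rises (Nmrk2, Myh7, Esr1, Rad17 and Cpe). Among the falls they numbered 8 (Ckm, Ptges3l, Itgb1bp2, Zfp30, Ces1d, Kcnip2, Gstp1 and Tnnc1).

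**Figure D1:**
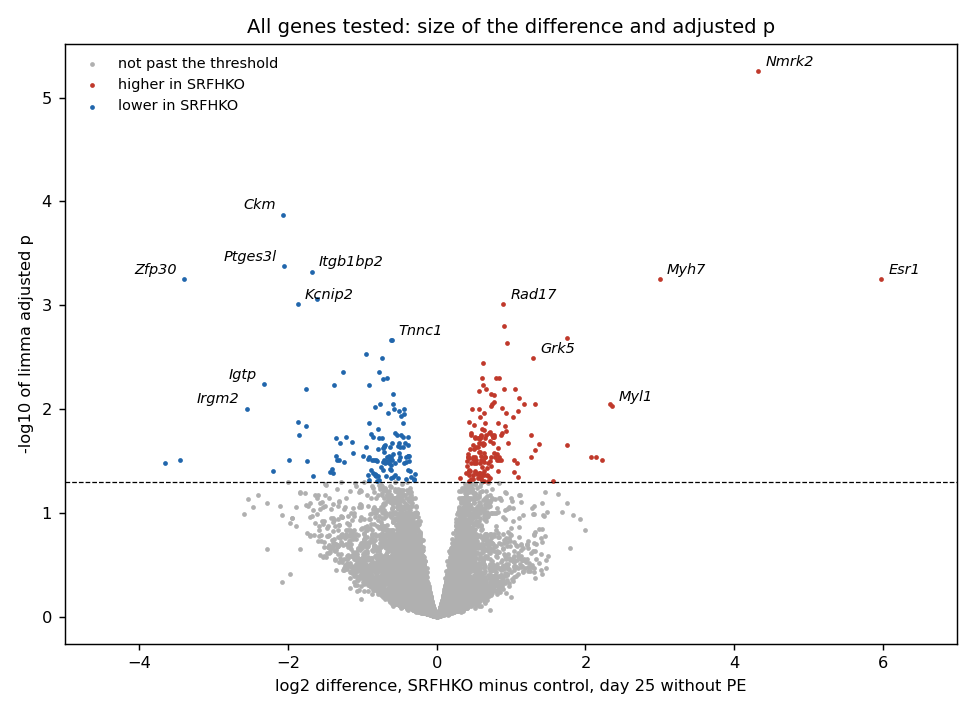
Each point is a gene, with its log2 difference between SRFHKO and control hearts on the x axis and -log10 of the limma adjusted p on the y axis; the dashed line marks an adjusted p of 0.05. The 159 genes called higher are red and the 136 called lower are blue, with Nmrk2 at the top and Esr1 farthest to the right, where its control level is near the filter limit.

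Nmrk2, a muscle kinase that turns nicotinamide riboside into a precursor of NAD, had the smallest p. It stood at 5.97, 5.45 and 6.09 in control hearts and at 10.56, 9.75 and 10.16 in SRFHKO hearts. The groups lay far apart, and the difference was 4.32 ± 0.36 (limma adjusted p = 5.56e-06), a 19.96-fold rise on this scale. No other of the 19 measured genes of NAD synthesis and use was called, and their median difference was -0.16. The SRFHKO arrays also lay above all 8 control arrays of the series, the highest of which, a control heart with PE, reached 7.94.

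Myh7, the slow beta-myosin heavy chain of the fetal and stressed mouse ventricle, stood at 9.14, 9.41 and 9.82 in control hearts and at 12.40, 12.66 and 12.30 in SRFHKO hearts. The SRFHKO values were tight, and the difference was 3.00 ± 0.38 (limma adjusted p = 0.000562). These 3 control arrays lay below every other array of the series, controls included: the lowest of the other 15 stood at 10.75 and the highest control array at 13.01. For this gene, a rise with deletion cannot be told apart from a low level in these controls. Nppa and Nppb, the natriuretic peptides often followed together with Myh7, differed by -0.16 ± 0.16 and -0.05 ± 0.28 with overlapping groups, and both signs turned under quantile normalisation (0.06 and 0.01) and with array brightness as a covariate (0.09 and 0.04), and that of Nppb without control replicate 3 (0.03).

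Esr1 encodes oestrogen receptor alpha, whose ligand-binding domain is also used to make Cre proteins that respond to tamoxifen. It stood at 3.39, 2.03 and 4.51 in control hearts, with 2 of the 3 arrays below the filter limit of 3.58, and at 9.46, 7.88 and 10.50 in SRFHKO hearts. With the dim control arrays raised to that limit, Esr1 was at least 42.0-fold higher in SRFHKO hearts (limma adjusted p = 0.000562). A second probe set for Esr1 that passed the filter gave -0.29 ± 0.35. Which transcript the brighter probe set reads was not tested.

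Several smaller rises also held without each array in turn. Rad17, a loader of the DNA damage checkpoint clamp, stood at 7.53, 7.83 and 7.62 in control and 8.47, 8.45 and 8.75 in SRFHKO hearts (0.89 ± 0.12, limma adjusted p = 0.000975). Cpe, the carboxypeptidase that trims peptide hormones, stood at 10.16, 10.17 and 10.07 against 10.91, 11.06 and 11.14 (0.90 ± 0.13, limma adjusted p = 0.00158). In both genes the 3 arrays of a group lay close together and the groups did not touch. Gcnt1, a glycosyltransferase of mucin-type sugar chains, was at least 3.27-fold higher (limma adjusted p = 0.00209), with 1 control array below the filter limit and the 3 control arrays below all 15 others. Il13ra1, a receptor chain for interleukin-13, rose by 0.95 ± 0.14 and Grk5, a kinase that phosphorylates adrenergic receptors, by 1.30 ± 0.20 (limma adjusted p = 0.00232 and 0.00322). The Grk5 values ran from 7.10 to 7.88 in control and from 8.27 to 8.97 in SRFHKO hearts.

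The other rises with the smallest p were small and even across hearts. They were Cox8a (0.62), the scaffold gene Lin7c (0.60), the glycolytic mutase Pgam1 (0.80), the ubiquitin ligase Mib1 (0.84), Jpt1 (0.62), the tissue factor gene F3 (0.90) and the poly(A) polymerase Papola (0.67), with limma adjusted p from 0.00361 for Cox8a to 0.0064 for F3 and Papola. Their calls held without each array in turn, the largest adjusted p being 0.0495, for F3 (limma). Reading a gene by the mean of its probe sets ended the calls of Il13ra1, Mib1 and Papola; for Papola the 4 other probe sets differed by -0.17 to 0.30.

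Among the largest rises, 6 rested on single arrays. The fast skeletal light chain Myl1 stood at 7.76, 7.98 and 6.86 in control and 9.56, 10.16 and 9.94 in SRFHKO hearts (2.35 ± 0.44, limma adjusted p = 0.00946). The groups did not overlap, but a control array with PE reached 9.61. Rbm45, an RNA-binding protein, ran from 4.31 to 7.19 in control hearts and from 7.82 to 8.11 in SRFHKO hearts (2.33 ± 0.43, limma adjusted p = 0.00901). Each of these calls ended without 1 array, Myl1 without control replicate 3 (limma adjusted p = 0.0537) and Rbm45 without SRFHKO replicate 3 (0.0519). Dim genes completed the set. Gm32688 was at least 3.01-fold higher and Zfp385b at least 3.12-fold, each with 1 control array under the filter limit. Zfp14, at least 2.35-fold higher, and Smn1, a gene of small nuclear RNA assembly, at least 2.63-fold, each had 2 control arrays under it. Without SRFHKO replicate 3 none of these 4 was called, and over the arrays left out their limma adjusted p reached 0.146 for Gm32688, 0.0993 for Zfp385b, 0.108 for Zfp14 and 0.0973 for Smn1.

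Ckm, the muscle creatine kinase that passes high-energy phosphate between ATP and creatine, led the falls. It stood at 12.59, 12.42 and 12.46 in control hearts and at 10.87, 9.76 and 10.65 in SRFHKO hearts. The SRFHKO values spread more but stayed clear of the controls, and the difference was -2.06 ± 0.22 (limma adjusted p = 0.000134), a 4.17-fold fall. Its second probe set fell by 1.40 ± 0.33. No other of the 14 measured genes of creatine and phosphoryl transfer was called, and the mitochondrial creatine kinase Ckmt2 differed by -0.21 ± 0.09.

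Itgb1bp2 encodes melusin, a striated muscle protein that binds the tail of beta-1 integrin. It stood at 10.55, 10.84 and 10.70 in control and at 9.37, 8.64 and 9.03 in SRFHKO hearts (-1.68 ± 0.21, limma adjusted p = 0.000476). Ptges3l, a muscle homologue of the chaperone p23, stood at 9.12, 9.12 and 8.89 against 7.29, 6.77 and 6.91 (-2.05 ± 0.24, limma adjusted p = 0.000420), and its other probe set fell by 2.12 ± 0.27. In both genes every SRFHKO array lay below all 8 control arrays of the series. Melusin was the only gene called among 21 measured genes of the costamere and integrins.

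Zfp30, a zinc finger gene, stood at 7.86, 7.48 and 8.13 in control and at 5.38, 3.98 and 3.91 in SRFHKO hearts (-3.40 ± 0.44, limma adjusted p = 0.000562). Its other probe set differed by -0.33 ± 0.39. Ces1d, a carboxylesterase with close homologues in its gene cluster, stood at 8.49, 8.67 and 8.94 against 7.07, 6.94 and 7.25 (-1.61 ± 0.22, limma adjusted p = 0.000873). Gstp1, a glutathione transferase with near-identical copies, fell by 0.61 ± 0.09 with control values between 11.32 and 11.35 and SRFHKO values between 10.68 and 10.80 (limma adjusted p = 0.00218). Further falls that held without each array were Hacd1, an enzyme in making very long chain fatty acids (-0.94 ± 0.15), the lipid droplet coat gene Plin3 (-0.67 ± 0.11) and Prkab2, a regulatory subunit of AMP-activated protein kinase (-0.72 ± 0.12). Their limma adjusted p were 0.00298, 0.00502 and 0.00518.

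The dimmest falls had no measured level in SRFHKO hearts, where all 3 arrays lay below the filter limit. Stbd1, a starch-binding protein of glycogen handling, was at least 6.13-fold lower, Gm10512 at least 2.39-fold and the growth factor gene Nrg2 at least 1.98-fold. Without SRFHKO replicate 3, or without SRFHKO replicate 2 or any 1 of the control arrays, none of the 3 was called (largest limma adjusted p 0.115, 0.146 and 0.109).

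**Figure D2:**
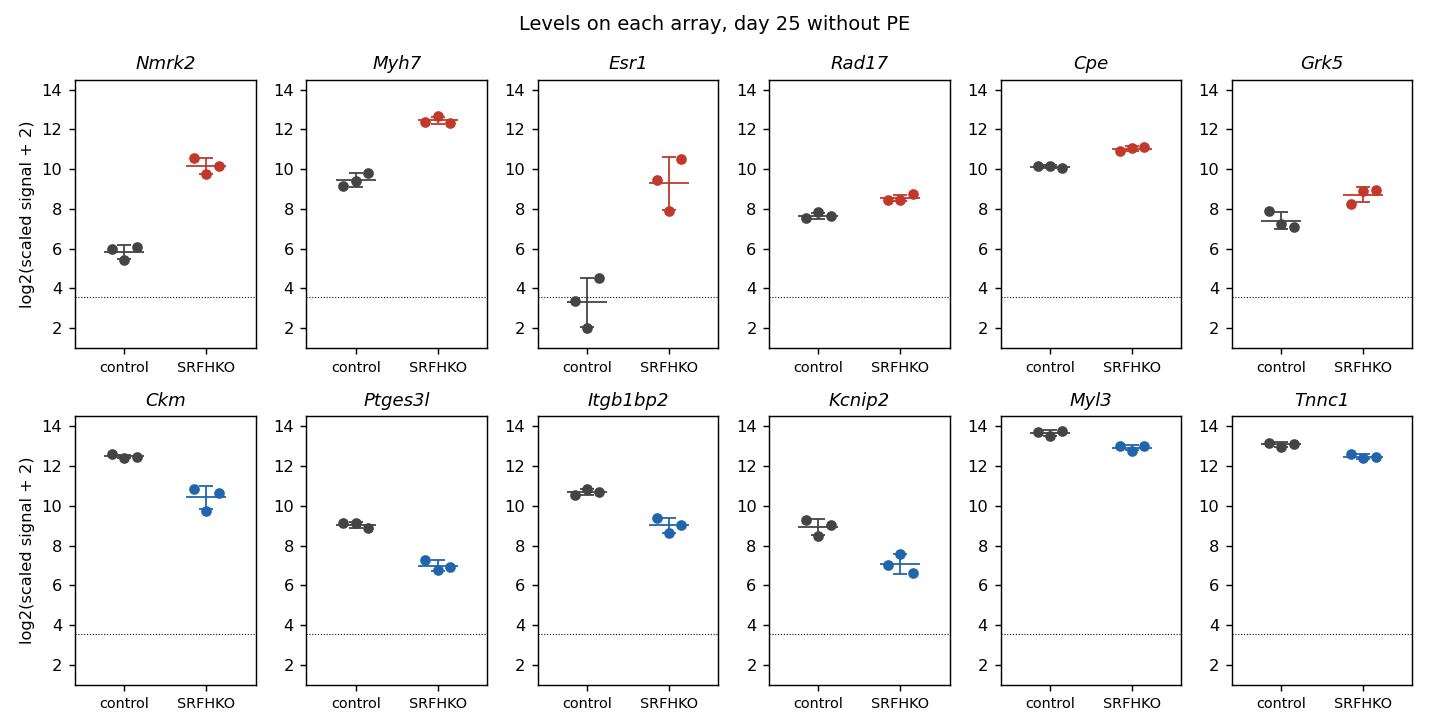
Level of 12 genes on each array of day 25 without PE, as log2(scaled signal + 2); points are arrays in replicate order, the bar is the group mean and the whiskers are SD (n = 3), and the dotted line is the filter limit of 3.58. The SRFHKO points of the upper row (red) lie above the control points and those of the lower row (blue) below them, without overlap in any panel.

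Genes of the contractile apparatus moved in both directions. Counts of list members, here and for the lists that follow, are to be read against all genes tested, of which 1.26% were called higher and 1.08% lower, and whose median difference was -0.05. Among 14 measured myosin chains and partners, Myh7 and Myl1 rose and Myl3, the ventricular essential light chain, fell, and the median difference was -0.17. Myl3 stood at 13.69, 13.53 and 13.78 in control and 13.02, 12.77 and 13.01 in SRFHKO hearts (-0.73 ± 0.11, limma adjusted p = 0.00322), and its 2 other probe sets fell by 0.66 ± 0.15 and 0.74 ± 0.13. Myh6, the fast alpha-myosin heavy chain that dominates the adult mouse ventricle, stood at 13.79, 13.67 and 13.84 against 13.53, 13.29 and 13.43 (-0.35 ± 0.10, limma adjusted p = 0.0626). Its groups did not overlap but it did not pass. Myl2 differed by -0.31 ± 0.11.

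All 12 measured troponins, tropomyosins and their capping proteins had differences below 0, as did 55.7% of all genes, and their median was -0.26. Called among them were cardiac troponin C, Tnnc1, and the tropomodulin Tmod4. Tnnc1 stood at 13.18, 12.96 and 13.14 in control and 12.60, 12.39 and 12.44 in SRFHKO hearts (-0.62 ± 0.09, limma adjusted p = 0.00218). Tmod4 fell by 0.69 ± 0.17 (limma adjusted p = 0.0328), and its call ended when any array was left out (largest adjusted p 0.0940). Cardiac troponin I, Tnni3, differed by -0.34 ± 0.12 and Tpm1 by -0.40 ± 0.11, neither called.

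Of 27 measured Z-disc and M-band genes, 3 rose (11.1%, against 1.26% of all genes) and 1 fell (3.7%, against 1.08%), with a median of 0.05. The rises were Synpo2l, an actin-binding protein of the Z-disc (0.92 ± 0.18), the formin Fhod3 (0.53 ± 0.13) and the M-band gene Lrrc39 (0.52 ± 0.11), and the fall was the M-band protein Myom1 (-0.51 ± 0.11), with limma adjusted p between 0.0147 and 0.0312. Without SRFHKO replicate 2, and likewise without SRFHKO replicate 3, none of the 4 was called (largest limma adjusted p 0.136). Another Synpo2l probe set differed by -0.89 ± 0.72.

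Among 31 measured actin cytoskeleton and smooth muscle genes known as SRF targets, Pdlim7 and Acta1 fell and Fhl1 rose, and the median was -0.15. The falls were 6.45% of the list, against 1.08% of all genes. Acta1, skeletal alpha-actin, stood at 10.32, 9.81 and 10.55 in control and 8.90, 8.29 and 9.19 in SRFHKO hearts (-1.43 ± 0.36, limma adjusted p = 0.0408). Every SRFHKO array lay below all 8 control arrays, but the call ended under the replicate block, under the brightness covariate, and without any 1 array except control replicate 2 (largest limma adjusted p 0.167 over the arrays left out). Pdlim7, a scaffold of actin filaments, ran from 7.27 to 7.48 in control and from 5.70 to 6.50 in SRFHKO hearts (-1.26 ± 0.20, limma adjusted p = 0.00444). Fhl1, a LIM protein of the sarcomere, rose by 0.64 ± 0.16 (limma adjusted p = 0.0393); its call ended under quantile normalisation, without control replicate 1 or 3 and without SRFHKO replicate 2 or 3 (largest limma adjusted p 0.180), and its dimmer probe set differed by -0.54 ± 0.40. Cardiac actin, Actc1, differed by -0.37 ± 0.11 (limma adjusted p = 0.0773). Asb2, a ubiquitin ligase subunit that targets filamins, stood at 11.27, 11.05 and 11.08 against 10.57, 10.17 and 10.36 (-0.77 ± 0.12, limma adjusted p = 0.00444). With array brightness as a covariate the calls of Asb2, Pdlim7 and Myl3 ended (limma adjusted p = 0.0762, 0.0613 and 0.0586).

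Because SRF acts through the CArG box, the promoters of the called genes were searched for it in RefSeq sequences of build GRCm38.p6, from 250 bases before to 50 bases after each start site. The box reads as a CArG box on either strand, so a search of 1 strand covers both. A promoter was held for 10149 of the 12610 genes tested, of which 161 had a box (1.59%), and the share was 1.81% over all 27025 genes of the promoter table. Among the falls 11 of 118 had a box (9.32%), among the rises 3 of 124 (2.42%) and among genes not called 147 of 9907 (1.48%). These shares are descriptions of letters in a short window, not tests, and no match says only that these letters are not there. Shown here, with the box in capitals, are the stretches before the start sites of 4 muscle genes that fell and of Fhl1, a muscle gene that rose:
Acta1: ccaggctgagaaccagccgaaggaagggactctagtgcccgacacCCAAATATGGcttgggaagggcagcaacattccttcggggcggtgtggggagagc
Myl3: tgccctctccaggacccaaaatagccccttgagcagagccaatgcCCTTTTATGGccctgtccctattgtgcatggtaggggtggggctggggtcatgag
Asb2: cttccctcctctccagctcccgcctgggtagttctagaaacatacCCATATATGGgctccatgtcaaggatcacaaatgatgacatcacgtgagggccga
Myom1: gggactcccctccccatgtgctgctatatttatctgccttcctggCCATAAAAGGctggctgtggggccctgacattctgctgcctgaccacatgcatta
Fhl1: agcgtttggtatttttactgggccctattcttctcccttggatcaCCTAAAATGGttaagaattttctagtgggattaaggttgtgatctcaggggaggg

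These stretches lie at chr8:123894794-123894893 on the minus strand for Acta1, chr9:110763548-110763647 on the plus strand for Myl3 and chr12:103356011-103356110 on the minus strand for Asb2. Those of Myom1 and Fhl1 lie at chr17:71019413-71019512 and chrX:56779536-56779635, both on the plus strand. The first base of the box lay 73 bases before the start site in Acta1, 85 in Myl3, 64 in Asb2, 99 in Myom1 and 102 in Fhl1. The box of Asb2 reads CCATATATGG, the same letters as that of 0610009L18Rik, and the box of Myom1 reads CCATAAAAGG, the same as that of Fermt2.

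The other falls with a box, named after their values were seen where no rule names them, were Stbd1, Gm9895, 0610009L18Rik, Prkab2, Rnf220, Gstp1 and Fermt2, a kindlin that activates integrins (-0.48 ± 0.09). The other rises with a box were Lclat1 and Smn1. The Fermt2 call ended without control replicate 3 or SRFHKO replicate 3 (at most 0.0639, limma). Without SRFHKO replicate 2 or 3, or control replicate 3, none of Rnf220, 0610009L18Rik, Gm9895 and Lclat1 was called. Over the arrays left out their limma adjusted p reached 0.145 for Rnf220 and Gm9895, 0.112 for 0610009L18Rik and 0.122 for Lclat1, with control replicate 1 also ending all of these but Gm9895, control replicate 2 those of Rnf220 and Gm9895, and SRFHKO replicate 1 those of 0610009L18Rik and Lclat1. With PE, 5 of the 11 falls were called lower again, as were 36 of all 136 falls (26.5%). The 5 were Acta1 (-2.28 ± 0.36), Asb2 (-1.07 ± 0.12), Myl3 (-0.81 ± 0.11), Gstp1 (-0.66 ± 0.09) and Myom1 (-0.47 ± 0.11), with limma adjusted p of at most 0.0442. Stbd1 and Prkab2 lay above 0 with PE (0.26 ± 0.81 and 0.35 ± 0.12). The windows of Nmrk2, Ckm, Myh7, Kcnip2 and Pdlim7 held no box.

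SRF partners and related transcription factors were mostly level. Of 19 measured, Tbx20, a T-box factor of the adult heart, rose by 0.76 ± 0.14 and Myocd, which encodes myocardin, rose by 0.78 ± 0.18 (limma adjusted p = 0.00862 and 0.0288), and the median over the list was 0.03, with 10.5% of it called higher against 1.26% of all genes. Myocd stood at 9.49, 9.22 and 9.23 in control and 9.66, 10.04 and 10.58 in SRFHKO hearts, and its dimmer probe set rose by 1.03 ± 0.17. Without SRFHKO replicate 3 neither was called (largest limma adjusted p 0.0557 for Tbx20 and 0.133 for Myocd); Myocd also missed without control replicate 2 or 3 or SRFHKO replicate 2. Of 23 immediate early genes only Dusp1, a phosphatase of MAP kinases, was called (0.62 ± 0.13, limma adjusted p = 0.0212), and it missed without control replicate 3 or SRFHKO replicate 3 (largest limma adjusted p 0.0928).

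Genes of electrical activity changed singly. Kcnip2, a subunit of the channel that carries the transient outward potassium current, stood at 9.29, 8.51 and 9.02 in control and 7.02, 7.58 and 6.61 in SRFHKO hearts. The lowest control and the highest SRFHKO array were well apart, the difference was -1.87 ± 0.25 (limma adjusted p = 0.000975), and the second probe set fell by 1.14 ± 0.27. Of the other 20 measured potassium channel genes only Kcnj11, the pore of the ATP-sensitive channel, was called (0.74 ± 0.17, limma adjusted p = 0.0292). Among sodium and calcium channels, exchangers and pumps, 1 of 14 was called, the calcium channel subunit Cacnb2 (0.64 ± 0.14, limma adjusted p = 0.0267). At the intercalated disc, where cells are joined, connexin 43 (Gja1) rose by 0.74 ± 0.15 and N-cadherin (Cdh2) by 0.46 ± 0.09 (limma adjusted p = 0.0177 and 0.0171) among 17 genes with a median of 0.13. The probe sets of Gja1 disagreed: of the 5 others, 3 differed by 0.62 to 1.37 and 2 by 0.18 ± 0.11 and -0.12 ± 0.44, the former on the brightest, which is of the type that can read other genes. Without SRFHKO replicate 3 none of Kcnj11, Cacnb2, Gja1 and Cdh2 was called (largest limma adjusted p over the arrays 0.113), while the Kcnip2 call held without each array.

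Calcium cycling genes of the sarcoplasmic reticulum gave 0 calls among 21 by limma, with 9 at an unadjusted p under 0.05 and a median of -0.16. The calcium pump Atp2a2 differed by -0.29 ± 0.10 (limma adjusted p = 0.143). In adrenergic and cAMP signalling, Grk5 and the regulatory subunit Prkar1a rose (0.55 ± 0.12 for Prkar1a, limma adjusted p = 0.0235) among 25 genes with a median of -0.03. Prkar1a missed without control replicate 3 or SRFHKO replicate 2 or 3 (largest limma adjusted p 0.114).

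Genes of mitochondrial energy supply lay slightly lower as a group, and most of them were not called. Of 33 measured subunits of respiratory complex I, 32 had differences below 0, as did 55.7% of all genes, and 6 fell (18.2%, against 1.08%): Ndufv3 (-0.50 ± 0.10), Ndufv1 (-0.39 ± 0.08), Ndufs7 (-0.49 ± 0.11), Ndufa9 (-0.29 ± 0.07), Ndufv2 (-0.31 ± 0.08) and Ndufa6 (-0.31 ± 0.08). Their limma adjusted p ran from 0.0104 to 0.0486, and the median over the list was -0.27. An unadjusted limma p under 0.05 was found for 23 of the 33, against 18.3% of all genes. Ndufv3 stood at 12.76, 12.75 and 12.91 in control and 12.43, 12.18 and 12.29 in SRFHKO hearts, so even a called subunit changed by less than 1.5-fold. In complexes III and IV and ATP synthase, 35 of 38 genes lay below 0 with a median of -0.24, and 28 had an unadjusted limma p under 0.05. The complex III subunits Uqcr11 (-0.44 ± 0.08) and Uqcrc1 (-0.45 ± 0.09) and the ATP synthase gene Atp5g1 (-0.41 ± 0.10) fell, and Cox8a rose.

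Cox8a, the liver-type form of a complex IV subunit that has a muscle form of its own, stood at 9.65, 9.44 and 9.72 in control and 10.28, 10.16 and 10.24 in SRFHKO hearts. Its call held without each array (limma adjusted p = 0.00361, at most 0.0207). In pyruvate oxidation and the TCA cycle, 25 of 30 genes lay below 0 with a median of -0.22 and 5 fell (16.7%, against 1.08% of all genes): the pyruvate dehydrogenase kinase Pdk2 (-0.57 ± 0.11), the aminotransferase Got2 (-0.48 ± 0.10), citrate synthase Cs (-0.39 ± 0.09), succinate dehydrogenase Sdhb (-0.44 ± 0.11) and Suclg1 (-0.36 ± 0.09). Fatty acid uptake and oxidation had 1 fall among 32, the dehydrogenase Acadvl (-0.39 ± 0.09), and a median of -0.19. Oxidation of ketone bodies and branched chain amino acids had 1 fall among 18, Hibadh (-0.45 ± 0.10), and a median of -0.25.

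The size of these group shifts moved with the scaling. Under quantile normalisation the medians were -0.15 for complex I and -0.03 for complexes III, IV and ATP synthase. They were -0.13 for the TCA cycle and -0.16 for fatty acids, against -0.01 over all genes. All kept their sign, but complexes III, IV and ATP synthase lay near the median of all genes. Without SRFHKO replicate 2 or 3 nearly all of these calls ended, Cox8a apart: of the 16 falls named, Pdk2 held without SRFHKO replicate 2 and Uqcrc1 without SRFHKO replicate 3, and the largest limma adjusted p over the arrays left out was 0.164, for Ndufv2. Cardiomyocyte markers moved alongside: 15 of 17 lay below 0 with a median of -0.22 (-0.02 under quantile normalisation), and their summed signal was 132470 to 156170 in SRFHKO against 167820 to 180400 in control arrays. The part of that shift in the mitochondrial values was not tested.

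In glycolysis, Pgam1 rose and the phosphofructokinase Pfkm fell (-0.37 ± 0.09, limma adjusted p = 0.0320) among 20 genes with a median of -0.09, and the summed signal was 38418 to 44501 in SRFHKO against 43352 to 46791 in control arrays. Of the metabolic transcription regulators 0 of 20 were called by limma, with 4 at an unadjusted p under 0.05. The coactivator Ppargc1b had the smallest p of the list (-0.67 ± 0.19, limma adjusted p = 0.0669). Antioxidant genes gave a rise of the extracellular peroxidase Gpx3 (0.94 ± 0.18) and a fall of mitochondrial superoxide dismutase Sod2 (-0.41 ± 0.11) among 25, with limma adjusted p of 0.0109 and 0.0469. Pfkm missed without control replicate 1 or 3 or SRFHKO replicate 2 or 3 (largest limma adjusted p 0.140), Sod2 without any 1 array except SRFHKO replicate 1 (0.161) and Gpx3 without SRFHKO replicate 2 (0.0621).

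**Figure D3:**
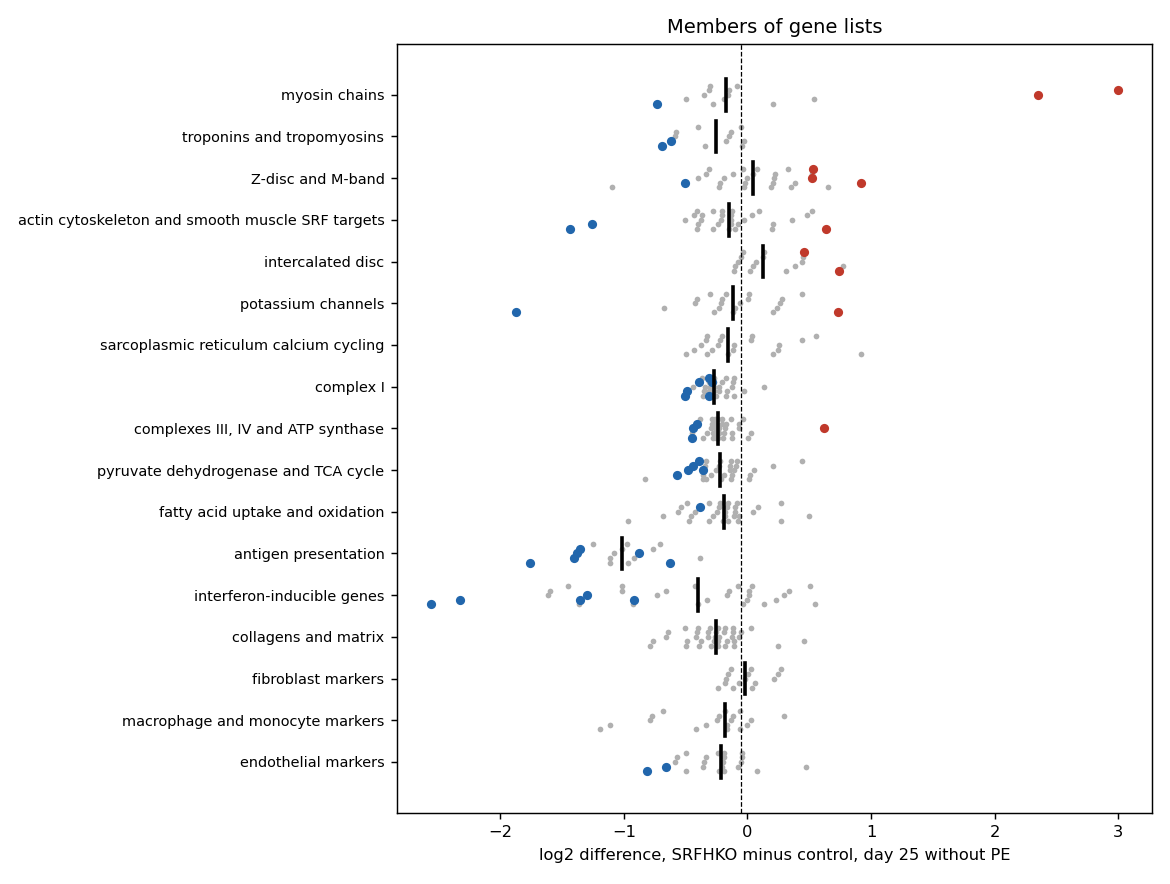
Log2 differences of the members of 17 gene lists, each point a gene; large red and blue points were called higher and lower, small grey points were not, the black bars are list medians and the dashed line is the median over all genes, -0.05. Antigen presentation has the lowest median, -1.01, and the medians of the mitochondrial lists lie left of the dashed line, with members on both sides of it.

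Antigen presentation genes, which load peptides on MHC molecules for T cells, were the list with the lowest median. All 17 measured members lay below 0, against 55.7% of all genes, and all 17 had an unadjusted p under 0.05, against 18.3%. Of these 6 fell (35.3%, against 1.08% of all genes), and the median was -1.01, against -0.05 over all genes. The class I heavy chain H2-K1 stood at 12.04, 11.97 and 11.23 in control and 9.79, 10.55 and 10.76 in SRFHKO hearts (-1.38 ± 0.24, limma adjusted p = 0.00594). Its partner B2m stood at 12.21, 12.45 and 12.02 against 10.68, 11.47 and 11.90 (-0.88 ± 0.22, limma adjusted p = 0.0386), and the peptide transporter Tap1 at 7.46, 7.26 and 6.85 against 4.77, 5.6 and 5.94 (-1.76 ± 0.35, limma adjusted p = 0.0144). In all 3 genes SRFHKO replicate 1 was lowest and replicate 3 nearest to the controls. All 4 H2-K1 probe sets, which fell by 0.97 to 1.55, are of a type that can also read other class I genes.

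The immunoproteasome subunits Psmb9 (-1.35 ± 0.31) and Psmb10 (-0.63 ± 0.15), which cut peptides for class I, also fell, as did the class II chain H2-Aa (-1.40 ± 0.35), with limma adjusted p of 0.0284, 0.0312 and 0.0416. The class II genes Cd74, H2-Ab1 and H2-Eb1 differed by -1.25 ± 0.39, -0.97 ± 0.39 and -1.11 ± 0.35 and were not called. The H2-K1 call held without each array but ended with array brightness as a covariate and in the fit on the 6 arrays alone (limma adjusted p = 0.0615 and 0.0648). Tap1 missed without control replicate 1 (limma adjusted p = 0.0530). B2m and Psmb9 missed without any 1 array except SRFHKO replicate 3, Psmb10 without control replicate 1 or 2 or SRFHKO replicate 2 or 3, and H2-Aa without any 1 array (largest limma adjusted p 0.11, 0.0976, 0.123 and 0.168). The list median stayed between -1.22 and -0.74 with single arrays left out and was -1.05 under quantile normalisation.

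Of 31 measured interferon-inducible genes, 5 fell (16.1%, against 1.08% of all genes) and 22 lay below 0, with a median of -0.40. Those that fell were genes known to answer interferon gamma: the guanosine triphosphatases Igtp, Irgm2 and Gbp2, the factor Irf1 and Psmb9. Other bright members of the list, Iigp1, Ifitm3, Gbp6 and Ifi27, were not called. Igtp stood at 10.62, 10.95 and 10.29 in control and 7.74, 8.24 and 8.90 in SRFHKO hearts (-2.32 ± 0.39, limma adjusted p = 0.00573). Irgm2, its neighbour on the chromosome, stood at 9.98, 10.52 and 9.28 against 5.98, 7.69 and 8.44 (-2.56 ± 0.48, limma adjusted p = 0.00997), and Irf1 at 8.15, 8.28 and 8.33 against 7.11, 7.44 and 7.46 (-0.92 ± 0.16, limma adjusted p = 0.00594). These 3 calls held without each array, but none held with array brightness as a covariate (limma adjusted p = 0.117 for Igtp and Irgm2 and 0.106 for Irf1), and that of Irgm2 also ended in the fit on the 6 arrays alone (0.0783). Gbp2 fell by 1.30 ± 0.28 (limma adjusted p = 0.0215) and missed without control replicate 1 or 3 or SRFHKO replicate 1 or 2 (at most 0.0666). The list median moved to 0.11 with array brightness as a covariate, and between -0.98 and -0.05 with single arrays left out, so the direction of the list as a whole is not settled. The list's summed signal was 3998 to 16333 in SRFHKO against 12102 to 15711 in control arrays.

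Some called genes outside both lists, named after their values were seen, belong to the same biology and, on the probe sets read, moved in both directions. The proteasome activator Psme1 (-0.61), the factor Irf8 (-0.77) and Cd274 (-1.40), which encodes the checkpoint ligand PD-L1, fell. The factor Irf5 rose by 1.27 ± 0.29 (limma adjusted p = 0.0292), from 4.34, 3.49 and 3.94 to 5.19, 4.97 and 5.40, with 1 control array below the filter limit. Its call ended without control replicate 2 or 3 or SRFHKO replicate 2 or 3 (largest limma adjusted p 0.117) and by the mean of its probe sets. Another Irf5 probe set differed by -1.10 ± 0.29 (limma adjusted p = 0.0542 over all probe sets), so the direction of Irf5 depended on the probe set. Without any 1 array Psme1 and Irf8 missed, and Cd274 missed without any 1 except SRFHKO replicate 3 (largest limma adjusted p 0.0964, 0.167 and 0.111).

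Markers of immune and vessel cells were read beside these genes. Macrophage and monocyte markers gave 0 calls among 19 by limma (3 at an unadjusted p under 0.05), with a median of -0.18 and a summed signal of 3565 to 5178 in SRFHKO against 4481 to 5385 in control arrays. Of 17 markers of T, NK and dendritic cells, 4 passed the filter and 0 were called by limma (1 at an unadjusted p under 0.05). Their summed signal was low and did not overlap, from 28.1 to 49.5 against 56.5 to 97.9, and Cd3d, Cd3e, Cd3g and Cd4 lay below the filter. The chemokine Ccl5 differed by -2.47 ± 0.75 (limma adjusted p = 0.0888). Endothelial markers had 20 of 22 members below 0, a median of -0.21, and summed signals from 13954 to 15157 against 16307 to 16704, and Ramp2, a receptor partner for adrenomedullin, and Cldn5, a claudin of tight junctions, fell (-0.66 ± 0.13 and -0.81 ± 0.19). Ramp2 missed without control replicate 3 or SRFHKO replicate 3, and Cldn5 without any 1 array except SRFHKO replicate 2 (largest limma adjusted p 0.0692 and 0.0976). The part of these cells in the antigen presentation values was not tested.

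**Figure D4:**
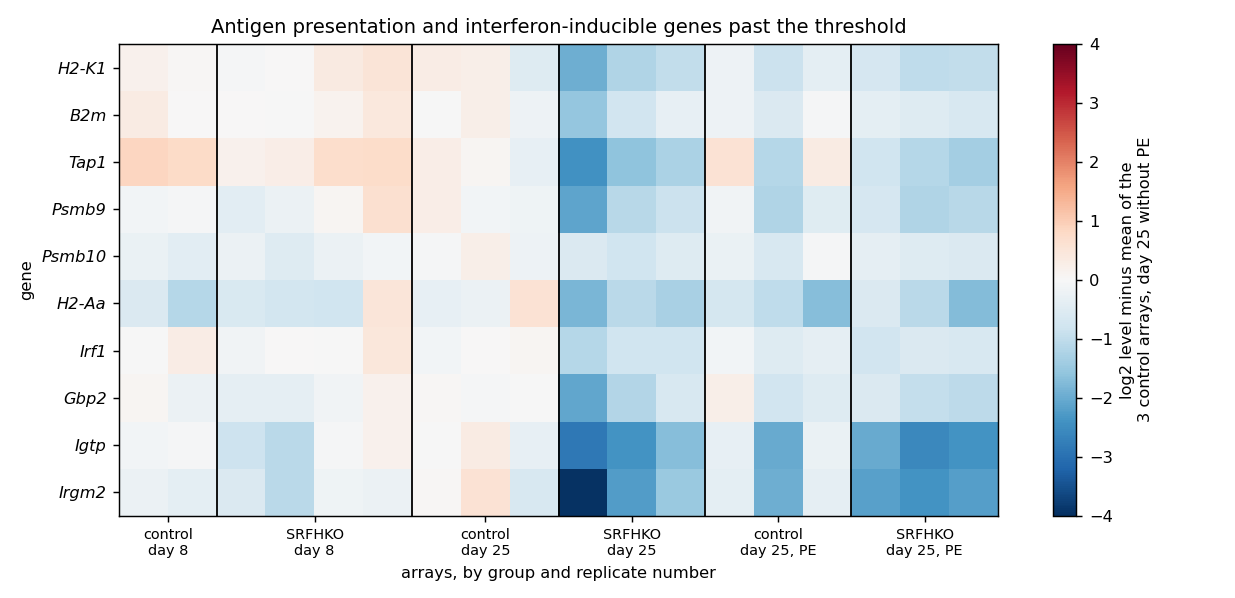
Level of 10 called genes of antigen presentation and the interferon response on all 18 arrays, as the log2 difference from the mean of the 3 control arrays of day 25 without PE; columns are arrays in replicate order within each group. The 3 SRFHKO arrays of day 25 without PE are blue in every row, most deeply replicate 1 in most rows; the SRFHKO arrays with PE and replicate 2 of the controls with PE are also blue, and the day 8 arrays lie near white for most genes, with H2-Aa an exception.

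Other cell types gave few calls. Fibroblast markers gave 0 calls among 15 by limma, 0 of them at an unadjusted p under 0.05, with a median of -0.02, and the collagens and matrix genes gave 0 among 37 (3 at an unadjusted p under 0.05), although 34 of 37 lay below 0 and the median was -0.25. Smooth muscle and pericyte markers gave 0 among 13 (2 at an unadjusted p under 0.05). Among 7 measured B and plasma cell markers Igha, the heavy chain of immunoglobulin A, fell from 10.81, 10.76 and 8.48 to 6.56, 7.74 and 4.79 (-3.65 ± 0.88, limma adjusted p = 0.0334). Both groups spread over more than 2 log2 units, and the joining chain gene Jchain differed by -1.84 ± 0.80. The Igha call ended without control replicate 1 or 2 or SRFHKO replicate 1 or 3 (at most 0.163). The lung marker Napsa was at least 1.56-fold lower, with all 3 SRFHKO arrays below the filter limit, and 4 of 8 lung markers passed the filter. Its call ended without control replicate 1 or 3 or SRFHKO replicate 2 or 3 (limma adjusted p at most 0.0761).

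The same deletion was read in other hearts, which had received PE. Both comparisons came from the same fit and shared each gene's estimate of the spread. This favours calls of the same genes in both, so the calls are not independent. There 206 genes were called (1.63%), 93 higher (0.738%) and 113 lower (0.896%), and 65 genes were called in both comparisons, all in the same direction: 22% of those called without PE and 31.6% of those called with PE. Of the 159 rises, 148 were also higher with PE (49.5% of all genes were) and 29 were called higher, and of the 136 falls, 120 were also lower (50.5% of all genes were) and 36 were called lower. With PE the rises had a median of 0.31 and the falls of -0.39, where all genes had a median of 0.00. These genes were chosen for passing the threshold without PE, which favours large values there, so the medians of the 2 conditions are not compared.

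Several muscle genes were called lower under both conditions. Ckm differed by -2.06 without and -1.99 with PE, Kcnip2 by -1.87 and -1.93, Itgb1bp2 by -1.68 and -2.01, Tnnc1 by -0.62 and -0.73, Myl3 by -0.73 and -0.81, Asb2 by -0.77 and -1.07 and Pdlim7 by -1.26 and -1.36, all called in both (limma adjusted p with PE at most 0.00173). Acta1 differed by -1.43 without and -2.28 with PE, called in both, and Tmod4 by -0.69 and -0.49, called only without PE (limma adjusted p = 0.155 with PE); the difference between the conditions did not pass the test for any gene of this paragraph. Grk5 differed by 1.38 ± 0.20 with PE and 1.30 ± 0.20 without. Nmrk2 differed by 2.92 ± 0.36 with PE, where the control arrays stood higher, between 7.57 and 7.94.

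Antigen presentation genes were not called with PE. There H2-K1 stood at 11.53, 10.90 and 11.37 in control and 11.07, 10.74 and 10.77 in SRFHKO hearts (-0.41 ± 0.24), B2m differed by -0.24 and H2-Aa by 0.02, and the list median was -0.24, with 0 of 17 called by limma. For H2-K1, B2m and H2-Aa the difference between the conditions was itself tested and did not pass (limma adjusted p = 0.558, 0.666 and 0.565). The interferon-inducible list had its median at -1.02 with PE, with 30 of 31 genes below 0 (50.5% of all genes were) and 0 called by limma. Without PE its median was -0.40 and 5 were called. The difference between the conditions was not tested for the list. Its summed signal with PE was 16304, 6910 and 29453 in control arrays, a wide spread, and 6447, 6629 and 6078 in SRFHKO arrays. The mitochondrial lists lay low in both, with medians of -0.32 for complex I and -0.30 for the TCA cycle with PE and 10 and 4 falls.

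The difference between the 2 conditions passed the threshold for 3 genes (0.0238%; 948 at an unadjusted p under 0.05, 7.52%): Myh7, Prkab2 and Sprr1a. Myh7 differed by 3.00 ± 0.38 without PE and -0.34 ± 0.38 with PE. Prkab2 fell by 0.72 ± 0.12 without PE, from 8.13, 8.32 and 8.30 to 7.71, 7.33 and 7.54, and differed by 0.35 ± 0.12 with PE. Sprr1a, a small proline-rich protein first known from skin, differed by -0.34 ± 0.36 without PE and rose by 3.10 ± 0.36 with PE. Without control replicate 2 or SRFHKO replicate 2 of the hearts without PE 0 genes passed this test, without SRFHKO replicate 1 or 3 it was 1, and reading genes by the mean of their probe sets also left 1.

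**Figure D5:**
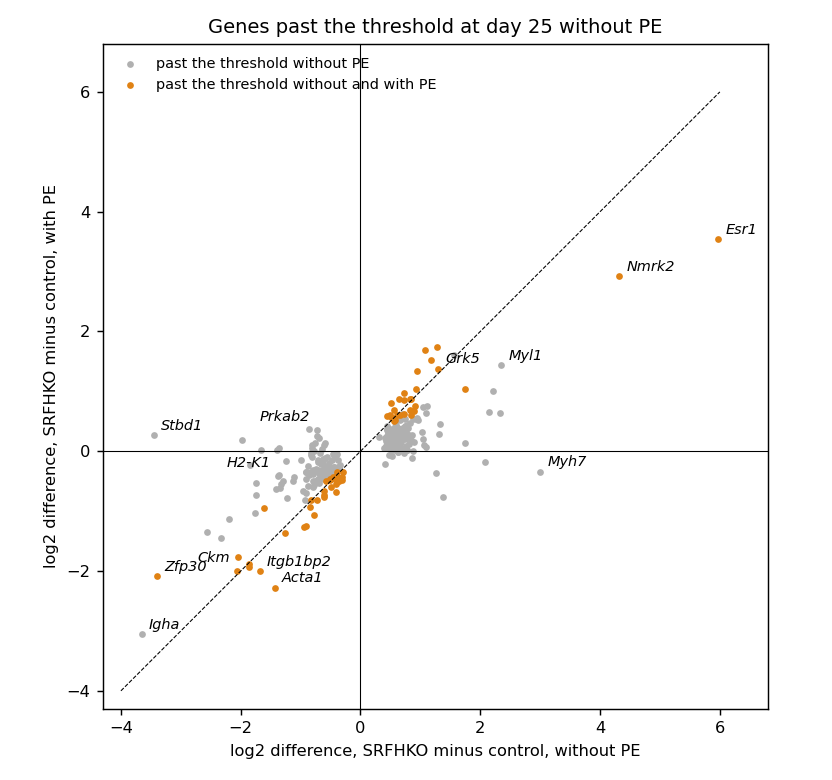
The 295 genes called at day 25 without PE, with the log2 difference between SRFHKO and control hearts without PE on the x axis and with PE, in other hearts, on the y axis; orange points were also called with PE and the dashed line marks equal differences. All 65 orange points have the same sign on both axes; Ckm and Itgb1bp2 lie near the dashed line, Zfp30, Nmrk2 and Esr1 have the smaller difference with PE, and Myh7 lies far below the line.

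The same genes were also read at day 8. Of the 159 rises 111 were higher at day 8 (49.5% of all genes were) and of the 136 falls 92 were lower (50.5% of all genes were). Their medians were 0.09 and -0.10, against -0.003 over all genes. At day 8, 8 genes were called in all (0.0634%), among them 2 of the rises and 2 of the falls. The genes called in all 3 comparisons numbered 4, and at day 8 they differed by 3.12 (Nmrk2), 5.28 (Esr1), -2.31 (Acta1) and -0.90 (Hacd1). Ckm differed by -0.23 ± 0.23 at day 8 and by -2.06 ± 0.22 at day 25, Kcnip2 by -0.56 and -1.87, Tnnc1 by -0.14 and -0.62 and H2-K1 by 0.12 and -1.38. The test of the difference between the days gave 0 genes by limma (1407 at an unadjusted p under 0.05, 11.2%), so no gene is shown to differ between the days.

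How far the changes stood from all controls of the series was also counted. The 3 SRFHKO arrays lay beyond all 8 control arrays, those of day 8 and with PE included, for 72 of the 159 rises and 66 of the 136 falls, against 4.4% of all genes tested. For 34 rises and 16 falls the 3 control arrays of day 25 without PE instead lay apart from all 15 other arrays, against 1.77% of all genes. Among these were Myh7, Gcnt1, Rad17, Cpe, Gpx3, Hsp90aa1, Cs, Got2 and Acadvl. In Rad17 and Cpe both held: the highest control array reached 8.22 and 10.60, below the lowest SRFHKO array of day 25 without PE at 8.45 and 10.91. All called genes were picked on these same arrays of day 25 without PE. That choice favours both counts over the shares of all genes, so the counts are descriptions and not tests.

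Positions on the chromosomes were looked at last. Of the 40 measured genes nearest to Srf, 20 on each side, 0 were called by limma, with 9 at an unadjusted p under 0.05 (22.5%, against 18.3% of all genes). Among 12566 pairs of adjacent measured genes 11 had both members called, 8 in the same direction, among them Igtp with Irgm2 and Psmb9 with Tap1. Over all genes tested 2.34% were called, which by itself gives some such pairs. Whether 11 is more than that share would give was not tested.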

How the data were processed

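RNA of ventricles was hybridised as biotinylated cRNA to Affymetrix arrays, 1 per heart. The authors deposited linear signal intensity values per probe set made with GCOS; the sources used here do not give its version or signal method, and the deposited arrays were not on a common scale, with trimmed means from 46.6 to 147.7. Each array was therefore scaled to a 2% trimmed mean of 90.56. From the deposited intensities, log2(scaled signal + 2) was computed. Probe sets under the 40th percentile of mean level (limit 3.58) and control probe sets were left out, and each gene was read by its probe set of highest mean, passing over those whose names end in _x_at (which can read other genes) unless a gene had no other, leaving 12610 genes. Symbols were updated through RefSeq (GRCm38.p6).

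Group means were fitted over all 18 arrays with limma 3.58.1 (trend, R 4.3.3), with Benjamini-Hochberg adjustment over all genes. A lower bound of a fold sets arrays under the limit to that limit. On simulated data for this comparison (12610 genes, 200 changed), 71% of changes of 1 and 89% of changes of 2 were recovered, with 8 false among 168 calls. The simulated noise was independent between genes and arrays, with no difference in brightness or RNA quality. These figures therefore do not give the share of false calls in the real data. The number of arrays limits the precision. The titles call the replicates biological, with nothing further on separate litters. After scaling, the deviations of control and SRFHKO arrays of the same replicate number correlated at 0.04, 0.00 and -0.08. Before scaling, replicate 2 was the brightest and replicate 3 the dimmest in every group of day 25. Whether arrays of the same number were handled together was not tested.

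The genes named are the 15 rises and 15 falls of smallest p and the 10 of largest size among called genes whose groups do not overlap, called list members and up to 4 further members of highest mean signal, core genes, and the 5 of smallest p in each interaction; others are named as chosen after their values were seen. The comparison, the lists and the core genes were chosen with earlier results of these data known. Alternatives were other scalings, pseudocounts, filters and probe set rules, fits on fewer arrays, a replicate block and single arrays left out.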

Additional observations from a re-analysis of the deposited data

Results flagged for a closer look

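The difference between SRFHKO and control hearts itself differed between hearts with and without PE for 3 genes, by limma's interaction test over all genes. For Myh7 the difference with PE minus that without was -3.34 ± 0.54 (limma adjusted p = 0.0278). The control arrays stood between 9.14 and 9.82 without PE and between 12.55 and 13.01 with PE. For Prkab2 it was 1.07 ± 0.17 (limma adjusted p = 0.0278), a fall without PE and an uncalled difference above 0 with PE. For Sprr1a it was 3.45 ± 0.51 (limma adjusted p = 0.0271). Its 3 SRFHKO arrays with PE stood at 8.74, 8.90 and 7.27, above all 15 other arrays, of which the highest was 5.57.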

How the results depend on the processing

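The counts of 159 rises and 136 falls were 154 and 134 under quantile normalisation and stayed within 1.5 times under the other pseudocounts, filters and the mean of a gene's probe sets. They moved to 18 and 22 with the compared groups alone and to 22 and 17 with array brightness as a covariate, which was added after the data were seen; the fit on the day 25 arrays gave 101 rises and 95 falls. Single arrays left out gave 24 to 184 rises and 32 to 213 falls, 0 to 4 genes for the interaction with PE and 0 to 3 for that with the day. The mean of a gene's probe sets left 1 gene for the interaction with PE. The replicate block gave 158 and 148 genes, and 2 and 0 for the interactions. In scaled values 1 of 3 replicates correlated best with its own number, while brightness before scaling followed the replicate number at day 25. No pairing is claimed. Nppa and Nppb turned sign under quantile normalisation (0.064 and 0.006) and with brightness (0.086 and 0.039), and with single arrays left out Nppb ran from -0.091 to 0.027 and Srf from -0.163 to 0.074, above 0 without control replicate 3 for Nppb and without control replicate 1 or SRFHKO replicate 2 for Srf. The cause was not tested. The ratio of array brightness was 1.14 by the median intensity (exact permutation p = 0.3). Of 102 named called genes, 33 kept their call without each array, while 61 lost it without SRFHKO replicate 3 and 58 without control replicate 3. Genes near the filter limit of 3.58 have only bounds. The fit on day 25 arrays gives no interaction with the day.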

Other observations

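Among lists not described above, the chaperones and genes of the unfolded protein response gave 1 rise among 31, the cytosolic chaperone Hsp90aa1, with a median of 0.06. Hsp90aa1 stood at 9.68, 9.55 and 9.23 in control and 10.43, 10.57 and 10.74 in SRFHKO hearts (1.09 ± 0.21, limma adjusted p = 0.0106). Polyamine metabolism changed at Azin1, which stabilises ornithine decarboxylase and rose by 0.76 ± 0.16, and at Smox, the spermine oxidase, which fell by 0.63 ± 0.14 (limma adjusted p = 0.0186 and 0.0231). Without SRFHKO replicate 3, and likewise without control replicate 3, none of these 3 was called, and Azin1 also missed without SRFHKO replicate 2 (largest limma adjusted p 0.113). Cytosolic ribosomal protein genes gave 0 calls among 24 by limma (2 at an unadjusted p under 0.05) with a median of 0.02, and atrial markers 0 among 11 (1 at an unadjusted p under 0.05) with a median of -0.06.

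For 160 called genes another probe set passed the filter. Of 299 such probe sets, 235 differed in the same direction as the one read and 64 in the opposite direction.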
